A study of Homo sapiens with 8 samples.

Results

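The SRC family and focal adhesion kinases were examined as 8 genes of the deposited table: SRC, YES1, FYN, LYN, FRK, PTK6, PTK2 and CSK. Rows were chosen by Ensembl gene identifier, matched without its version to these symbols in GENCODE, and all 8 of 8 genes were found among the 43869 genes of the table. Of the 126470 H3K27ac peaks, 129 were paired with at least 1 of them, with 2 to 30 peaks per gene, where pairing means a distance of no more than 20 kb. H3K27ac is the acetylation of histone H3 at lysine 27, a mark of active promoters and enhancers.

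The study compared treatment-naive H3122 cells, a human ALK-positive lung adenocarcinoma line carrying the EML4-ALK fusion, with derivatives that had evolved resistance (er) to ALK inhibitors by dose escalation. The resistant lines with both RNA and H3K27ac values were erCriz0, evolved in 0.5 µM crizotinib, erAlec0, evolved in 2 µM alectinib, and erLor0, evolved in 2 µM lorlatinib. Each was a single evolved line of the same parental cells, RNA was taken after a drug holiday, and the chromatin samples of all lines, naive included, were labelled as kept in DMSO vehicle. Each line gave 1 library of each kind, so every difference below is between single libraries, with no replicate check and no p-value.

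SRC family kinases are membrane-anchored tyrosine kinases that relay signals from integrins and receptor tyrosine kinases. SRC, YES1, FYN and LYN are family members, and FRK and PTK6 are relatives found mainly in epithelial cells. CSK holds the family inactive by phosphorylating a tyrosine in the tail of the kinase, while PTK2, the focal adhesion kinase, autophosphorylates at sites of cell attachment and there recruits SRC.

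RNA levels are rlog values, a log2 scale of normalised reads on which weakly expressed genes are drawn toward their mean over the libraries, so that changes of such genes are understated. The depth of the libraries is unknown. Changes are differences in rlog from naive cells, positive where the resistant line is higher. A gene is called up at 1 or more and down at -1 or less, the limit for genes in the methods of the study, and the same limit was applied here to peaks. All 8 kinases were among the 12701 expressed genes, those reaching an rlog equal to log2 of 25 in at least 1 line. The libraries had an epithelial profile, with 6 of 6 epithelial markers expressed at rlog 11.38 to 15.17 and 0 of 3 blood markers expressed. NKX2-1 was expressed at 8.67 to 9.18, but the other lung adenocarcinoma markers, NAPSA and SFTPB, stayed below the minimum. Of the fibroblast markers, COL1A1 alone was expressed, at 9.49 to 10.08, and of the endothelial markers CDH5 alone, at 4.10, 4.28, 5.78 and 5.64 in naive cells, erCriz0, erAlec0 and erLor0, with PECAM1 below 0 in all. The part of these markers in the results was not tested.

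YES1 and PTK2 RNA was nearly level, while the other 6 kinases spanned 0.67 to 1.18 on the rlog scale across the 4 lines. SRC RNA was lower in erCriz0 and PTK6 RNA was lower in erLor0, and these were the only values past the limit. LYN in erCriz0 and FYN in erAlec0 had the highest changes, both short of the limit. In erCriz0, 0 of 8 kinases were up and 1 was down, where 2.65% of expressed genes were up and 1.65% down. In erAlec0, 0 were up and 0 down, where 2.46% were up and 2.07% down. In erLor0, 0 were up and 1 was down, where 1.10% were up and 0.740% down. The median change of the kinases was 0.15, -0.03 and -0.15 in erCriz0, erAlec0 and erLor0, and that of all expressed genes was -0.02, 0.002 and -0.004. With 8 genes, a count of 1 is too small to be set apart from these shares.

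**Figure D1:**
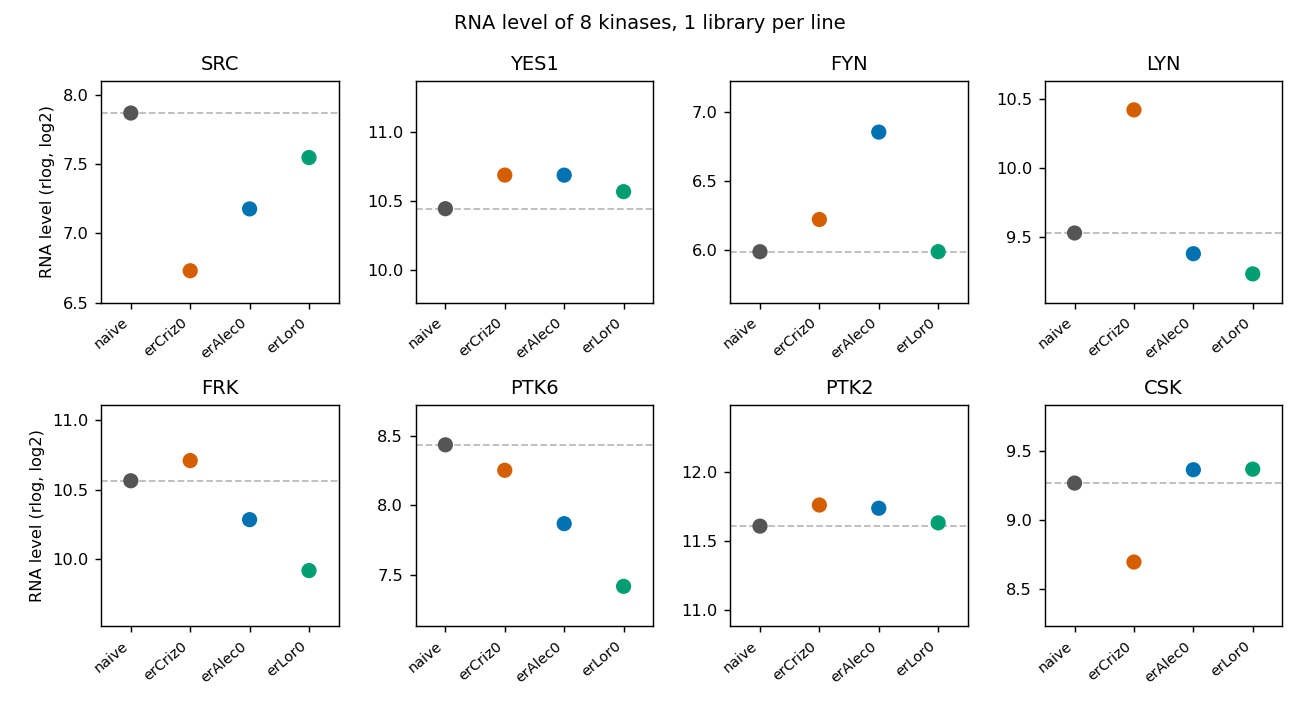
RNA level (rlog, log2 scale) of each kinase in the 4 lines, 1 point per library; the dashed line is the naive level and each panel spans the same 1.6 log2 units around its own values. SRC is lowest in erCriz0 (6.73) and PTK6 in erLor0 (7.42), LYN is highest in erCriz0 (10.42) and FYN in erAlec0 (6.85), while YES1 and PTK2 lie nearly level.

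Levels can be compared between genes only per length, so log2 of the exon length in kb was subtracted from each rlog. The exons of all annotated transcripts of a gene were merged for this length. It can exceed the length of the transcripts present, which lowers the per-kb level. On this per-kb log2 scale, YES1 at 8.09 and PTK2 at 7.83 were highest in naive cells. CSK at 7.08, LYN at 6.91, PTK6 at 6.87 and FRK at 6.82 followed, and lay so close together that single libraries cannot order them. SRC at 5.03 was below these, and FYN at 3.10 was the lowest. Among SRC, YES1, FYN and LYN, YES1 thus had the highest per-kb level in naive cells, ahead of LYN, SRC and FYN. This order depends on the merged lengths, which were 5.10 kb for YES1, 6.16 for LYN, 7.14 for SRC and 7.41 for FYN. YES1 and PTK2 were also highest and FYN and SRC lowest in each resistant line, with per-kb levels in erCriz0 of 8.34 for YES1, 7.98 for PTK2, 7.80 for LYN, 3.89 for SRC and 3.33 for FYN.

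H3K27ac at the 129 paired peaks was lower in erAlec0 than in naive cells. The median change over the 129 peaks was -0.05, -0.50 and -0.27 in erCriz0, erAlec0 and erLor0, while that of all peaks was 0.00 in each line. In erCriz0, 6 peaks (4.65%) were up and 6 (4.65%) down, where 7.00% of all peaks were up and 5.94% down. In erAlec0, 10 peaks (7.75%) were up and 18 (14.0%) down, where 14.1% were up and 9.41% down. In erLor0, 5 peaks (3.88%) were up and 12 (9.30%) down, where 7.45% were up and 8.82% down. Peaks of 1 gene are neighbours on the chromosome and are not replicates, and FRK alone gave 10 of the 18 peaks that were down in erAlec0 and 9 of the 12 in erLor0. When each ChIP library was centred on its own median, the counts became 10 up and 2 down in erCriz0 and 7 up and 5 down in erLor0, with 10 up and 18 down in erAlec0. The shares of all peaks past the limit after centring were not computed, so these counts cannot be set against them.

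**Figure D2:**
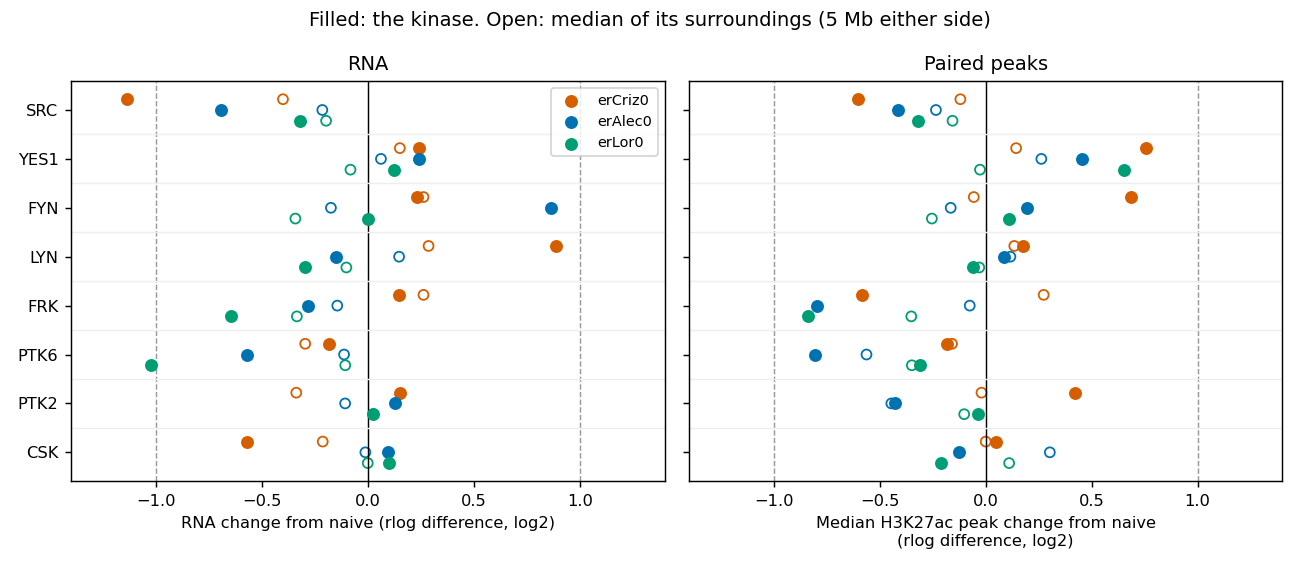
Change from naive cells (rlog difference, log2 scale) of the RNA of each kinase, left, and the median change of its paired H3K27ac peaks, right, in 3 resistant lines; open circles are the median of the other expressed genes or peaks within 5 Mb and dashed lines mark the limit of 1. SRC RNA in erCriz0 (-1.14) lies beyond the median of its surroundings (-0.40), and the peaks of FRK are lower in all 3 lines (-0.58, -0.79 and -0.84).

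The peak at the 5′ end of each gene was higher than in naive cells for 8 of 8 kinases in erCriz0, 6 of 8 in erAlec0 and 8 of 8 in erLor0. Some of these rises were close to 0, as for SRC in erCriz0 (0.03) and CSK in erLor0 (0.006). Higher start peaks were common in these libraries: of 8617 peaks covering the 5′ end of an expressed gene, 85.7% were higher in erCriz0, 74.1% in erAlec0 and 87.3% in erLor0. The start peak of FYN lies 179 bp from its 5′ end and so falls outside that set. The median change of the start peaks of the kinases was 0.75, 0.40 and 0.58, against 0.35, 0.26 and 0.41 over all start peaks. Peaks inside and around the genes often went the other way, and are described gene by gene below.

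SRC (ENSG00000197122.11, chr20:37344685-37406050, plus strand, hg38) is the founding member of the family. Its RNA level was 7.87 in naive cells, 7.55 in erLor0, 7.18 in erAlec0 and 6.73 in erCriz0. All 3 resistant lines lay below naive cells, with erCriz0 lowest. The changes were -1.14, -0.69 and -0.32 in erCriz0, erAlec0 and erLor0, and the first corresponds to a 2.20-fold lower level on the rlog scale. In erCriz0, 116 of the 12701 expressed genes (0.913%) had a change at or below that of SRC. The 78 expressed genes within 5 Mb of SRC had median changes of -0.40, -0.22 and -0.20 in the same order, so the surroundings were lower too, by less. In bulk samples, fewer cells expressing a gene and less RNA per cell cannot be told apart.

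The 12 peaks of SRC, all but 2 of them inside the gene and clear of its 5′ end, were mostly lower in the resistant lines. Their median change was -0.60, -0.41 and -0.32 in erCriz0, erAlec0 and erLor0, where 687 other peaks within 5 Mb had medians of -0.12, -0.23 and -0.16. The start peak (chr20:37343477-37346206) did not share this: it stood at rlog 7.53 in naive cells, 7.57 in erCriz0, 8.05 in erAlec0 and 8.20 in erLor0. RNA was thus lowest in the line whose start peak differed least from naive cells, with a change of 0.03. Averaged with the neighbouring peaks within 2 kb of the 5′ end, however, the change was -0.60 in erCriz0 and -0.06 in erAlec0. A strong peak over an exon, 37.61 kb into the gene (chr20:37380448-37384145), was lower in all 3 lines, at 7.97 in naive cells and 7.35, 6.82 and 7.28 in erCriz0, erAlec0 and erLor0. An intronic peak 13.9 kb into the gene (chr20:37358410-37358761) went up in erAlec0 and erLor0 alone, with changes of 0.03, 1.26 and 1.15.

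The lowest change of any of the 129 peaks in erCriz0 was at an intronic peak of SRC (chr20:37376996-37377277, 282 bp), which stood at 3.82 in naive cells, 2.54 in erCriz0, 3.20 in erAlec0 and 2.98 in erLor0. Its changes were -1.28, -0.62 and -0.84. The 300 bases at its centre (chr20:37376987-37377286, plus strand, hg38) are shown because it held the lowest change at SRC in the line with the lowest SRC RNA. Capitals mark matches on either strand to the letters of 5 motifs that were searched here and at the peaks below: AP-1 as TGANTCA, TEAD as GGAATG, forkhead as TGTTTAC, GC box as GGGCGG and ETS as CCGGAAG. None of these strings contains another. Over the central 300 bases of all 126470 peaks, they were found in 9.68%, 15.9%, 4.20%, 13.2% and 2.12%, respectively. This centre held 1 TEAD and 1 forkhead match, which says only that these letters are there.
SRC intron: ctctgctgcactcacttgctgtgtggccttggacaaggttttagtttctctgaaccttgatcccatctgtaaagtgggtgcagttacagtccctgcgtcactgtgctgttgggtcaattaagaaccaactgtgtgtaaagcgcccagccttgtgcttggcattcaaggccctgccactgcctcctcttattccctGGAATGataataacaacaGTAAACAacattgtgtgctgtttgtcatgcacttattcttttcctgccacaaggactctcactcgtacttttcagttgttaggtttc

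**Figure D3:**
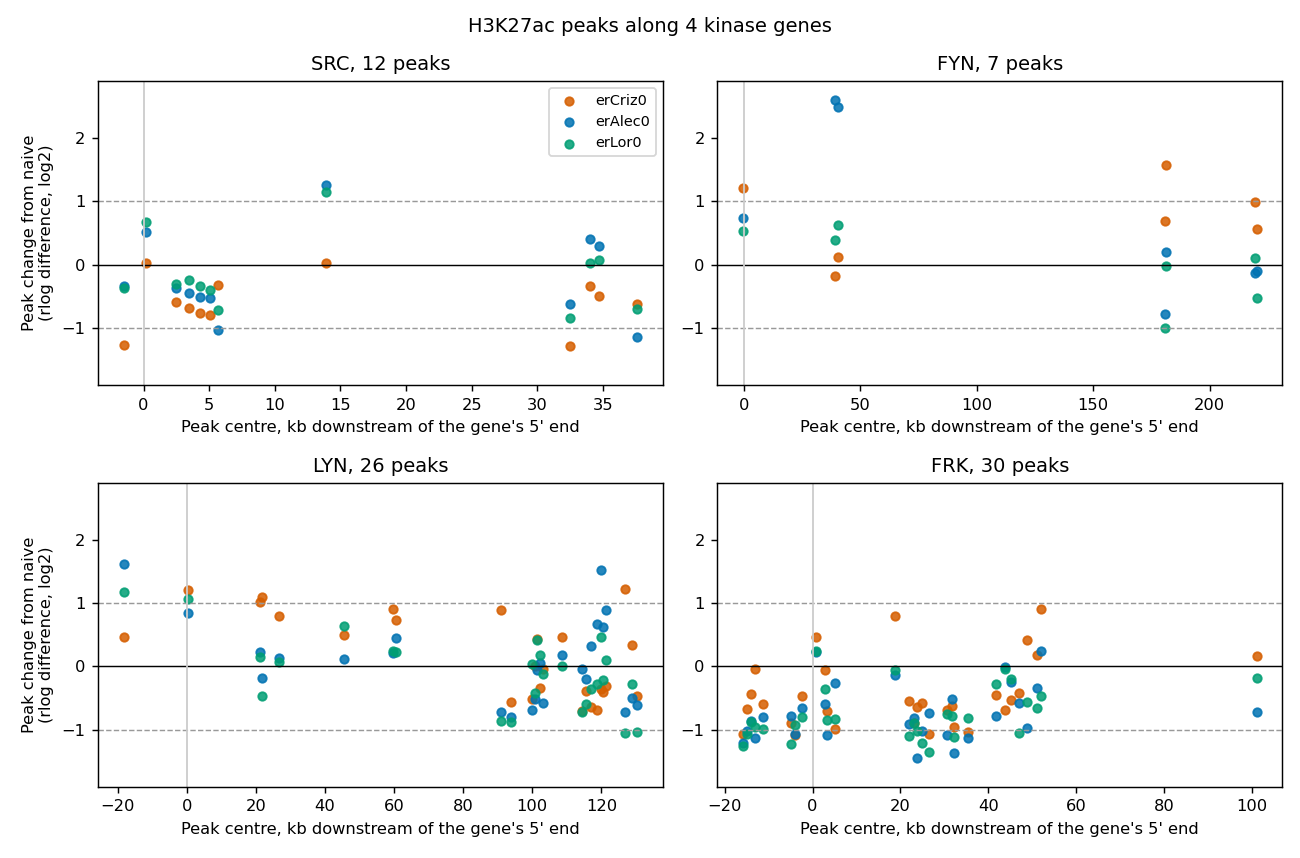
Change from naive cells (rlog difference, log2 scale) of every H3K27ac peak paired with SRC, FYN, LYN and FRK against the distance of the peak centre from the 5′ end of the gene in kb, 1 point per peak and line; dashed lines mark the limit of 1. Both peaks about 40 kb into FYN are high in erAlec0 (2.49 and 2.59), LYN peaks differ in direction between lines, and most FRK peaks lie below 0.

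FYN (ENSG00000010810.17, chr6:111660332-111873452, minus strand, hg38) encodes the family member known from T cells and neurons as well as epithelia. Its RNA level was 5.99 in naive cells, 6.22 in erCriz0, 6.85 in erAlec0 and 5.99 in erLor0. FYN was highest in erAlec0, with a change of 0.86, short of the limit, against 0.23 in erCriz0 and 0.00 in erLor0. In erAlec0, 447 expressed genes (3.52%) had a change at or above that of FYN. The 43 expressed genes within 5 Mb had median changes of 0.26, -0.17 and -0.34, so in erAlec0 FYN and its surroundings differed in sign.

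All 7 peaks of FYN were paired with no other gene. Their median change was 0.68, 0.20 and 0.11 in erCriz0, erAlec0 and erLor0. It was 0.56, 1.61 and 0.46 when peaks below an rlog of log2 of 15 in every line were left out. Every peak kept was below that level in naive cells and passed only through resistant lines where it was higher. The filter thus selected on the values compared, and these medians cannot order the lines. Acetylation 38.94 to 40.2 kb into the gene, in an intron, was highest in erAlec0. The peak at chr6:111834073-111834948 stood at 3.91 in naive cells, 3.72 in erCriz0, 6.50 in erAlec0 and 4.29 in erLor0. Its change of 2.59 in erAlec0 was the highest of all 129 peaks in any line. Its neighbour at chr6:111832807-111833697 stood at 3.39, 3.52, 5.88 and 4.01 in the same order, with changes of 0.13, 2.49 and 0.62. Thus FYN RNA and these intronic peaks were highest in the same line, but both peaks were picked by their values. Every other peak of FYN was highest in erCriz0. The highest change of any of the peaks in erCriz0 was also at FYN, at a weak intronic peak 181.11 kb into the gene (chr6:111692188-111692492), which went from 1.57 to 3.15, a change of 1.58, with 0.20 in erAlec0 and -0.02 in erLor0. The start peak (chr6:111873631-111874049), just upstream of the 5′ end, was weak and highest in erCriz0, at 2.83, 4.04, 3.57 and 3.36 in naive cells, erCriz0, erAlec0 and erLor0.

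The centres of both erAlec0 peaks and of the start peak of FYN are given below on the plus strand of hg38, at chr6:111834361-111834660, chr6:111833103-111833402 and chr6:111873691-111873990, because FYN RNA and the intronic peaks were both highest in erAlec0. Capitals again mark motif matches. The intronic centres, with 51.3% and 36.0% GC, held no match to the 5 motifs, and the start peak held 1 TEAD and 2 GC box matches.
FYN intron, 38.94 kb: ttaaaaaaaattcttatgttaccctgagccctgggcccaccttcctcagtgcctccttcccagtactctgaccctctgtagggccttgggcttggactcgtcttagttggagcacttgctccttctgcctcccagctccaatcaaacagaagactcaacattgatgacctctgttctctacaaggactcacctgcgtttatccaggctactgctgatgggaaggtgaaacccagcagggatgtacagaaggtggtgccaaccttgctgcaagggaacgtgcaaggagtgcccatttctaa
FYN intron, 40.2 kb: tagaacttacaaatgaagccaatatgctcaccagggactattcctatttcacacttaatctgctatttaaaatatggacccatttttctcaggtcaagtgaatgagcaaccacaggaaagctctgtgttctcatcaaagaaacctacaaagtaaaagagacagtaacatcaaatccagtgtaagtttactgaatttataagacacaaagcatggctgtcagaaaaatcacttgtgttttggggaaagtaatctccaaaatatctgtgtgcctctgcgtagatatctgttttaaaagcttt
FYN start peak: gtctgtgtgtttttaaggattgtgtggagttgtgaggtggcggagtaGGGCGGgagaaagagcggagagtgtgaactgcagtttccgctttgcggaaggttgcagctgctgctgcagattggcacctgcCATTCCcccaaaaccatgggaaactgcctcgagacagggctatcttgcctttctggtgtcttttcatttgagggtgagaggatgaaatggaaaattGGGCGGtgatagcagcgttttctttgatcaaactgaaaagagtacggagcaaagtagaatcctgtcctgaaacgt

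LYN (ENSG00000254087.8, chr8:55879835-56014169, plus strand, hg38), a family member best known from blood cells and also active in carcinomas, had its highest RNA in erCriz0. Its level was 9.53 in naive cells and 10.42, 9.38 and 9.24 in erCriz0, erAlec0 and erLor0. The changes were 0.89, -0.15 and -0.30, and erCriz0 lay 1.18 above erLor0 and 1.04 above erAlec0. In erCriz0, 445 expressed genes (3.50%) had a change at or above that of LYN, and the 22 expressed genes within 5 Mb had a median change of 0.29. Of the blood markers, PTPRC and CD3E were at or below 0 on the rlog scale in all 4 libraries, and CD68 was at 1.47, 1.69, 1.62 and 1.60 in naive cells, erCriz0, erAlec0 and erLor0.

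The 26 peaks of LYN had median changes near 0, at 0.18, 0.09 and -0.06 in erCriz0, erAlec0 and erLor0, but these medians covered peaks that differed by line. Near the start, acetylation was higher in every resistant line: the start peak (chr8:55879447-55881180) stood at 6.27 in naive cells, 7.47 in erCriz0, 7.12 in erAlec0 and 7.34 in erLor0. Within introns 21.25 to 60.66 kb into the gene, the higher values were mostly those of erCriz0, such as 4.80 in naive cells against 5.90, 4.63 and 4.33 at chr8:55901316-55902198. In the 3′ part of the gene, a strong intronic peak (chr8:56005234-56008047) stood at 7.20 in naive cells, 8.43 in erCriz0, 6.48 in erAlec0 and 6.16 in erLor0. This peak was up in erCriz0, with a change of 1.23, and down in erLor0, with -1.04, and erAlec0 at -0.72 was short of the limit. A second strong peak, over an exon 91.02 kb into the gene (chr8:55968394-55973318), had the same order, with changes of 0.89, -0.73 and -0.86. At both peaks the lines had the order erCriz0, naive, erAlec0, erLor0, which was also the order of the LYN RNA; both were picked after their values were seen. Other peaks had other orders. The strongest peak of LYN (chr8:55983587-55993099) stood at 10.72, 11.18, 10.89 and 10.72 in naive cells, erCriz0, erAlec0 and erLor0. A peak over an exon (chr8:55999285-56000243) was up in erAlec0 alone, with changes of -0.35, 1.53 and 0.46, and a peak upstream of the gene (chr8:55861355-55861819) was up in erAlec0 and erLor0, with 0.47, 1.62 and 1.18.

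YES1 (ENSG00000176105.14, chr18:721588-812546, minus strand, hg38), a close relative of SRC that is broadly expressed, had a near-constant RNA level of 10.44 in naive cells and 10.69, 10.69 and 10.57 in erCriz0, erAlec0 and erLor0. The changes were 0.24, 0.24 and 0.12. Its processed pseudogene YES1P1 (chr22:25647261-25649232) could take or share reads, and 5 annotated genes overlap the locus, as 3 do at each of LYN, FRK and PTK2, while the strand setting of the counting is not given in the sources used here. YES1 had 2 paired peaks, both higher in all resistant lines. The start peak (chr18:810788-813640) stood at 8.28, 8.94, 8.79 and 8.98 in naive cells, erCriz0, erAlec0 and erLor0, and the peak beyond the 3′ end (chr18:711300-713826), also paired with ENOSF1, at 8.26, 9.10, 8.66 and 8.86. None of these changes reached the limit, and the 214 other peaks within 5 Mb had medians of 0.14, 0.26 and -0.03.

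FRK (ENSG00000111816.8, chr6:115931149-116060891, minus strand, hg38), a nuclear and cytoplasmic relative of SRC described as a growth suppressor in epithelia, had a level of 10.56 in naive cells and 10.71, 10.28 and 9.92 in erCriz0, erAlec0 and erLor0. The changes were 0.15, -0.28 and -0.65, and in erLor0 343 expressed genes (2.70%) had a change at or below that of FRK. The 25 expressed genes within 5 Mb had medians of 0.26, -0.14 and -0.34.

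Most peaks of FRK were lower in all 3 lines, although several strong ones were not in erCriz0. Of its 30 peaks, 24, 28 and 29 were lower than in naive cells in erCriz0, erAlec0 and erLor0, with 4, 10 and 9 of them down by the limit, where 5.94%, 9.41% and 8.82% of all peaks were down, and 0 up in any line. Many of these peaks are also paired with the pseudogene TPI1P3 or with ENSG00000287933. The medians were -0.58, -0.79 and -0.84, where the 251 other peaks within 5 Mb had medians of 0.27, -0.07 and -0.35. The difference from the surroundings was thus -0.86, -0.72 and -0.49, and -0.85, -1.19 and -0.83 when they were taken within 2 Mb. Over the peaks paired with FRK alone, the median in erCriz0 was -0.04. The start peak (chr6:116058251-116061813) was not lower, at 9.13 in naive cells and 9.58, 9.35 and 9.36 in erCriz0, erAlec0 and erLor0. Most of the peaks around it were lower, for example one upstream at chr6:116064825-116065149, at 3.45, 2.37, 2.38 and 2.53 in naive cells, erCriz0, erAlec0 and erLor0. In erCriz0, FRK RNA was not lower although most of its peaks were, and strong intronic peaks were higher there, from 8.27 to 9.07 at chr6:116041002-116043423 and from 7.27 to 7.69 at chr6:116010767-116013168. The lowest change of all 129 peaks in erLor0, -1.35, was at an intronic peak 26.59 kb into FRK (chr6:116033793-116034814), which stood at 5.67 in naive cells, 4.61 in erCriz0, 4.93 in erAlec0 and 4.32 in erLor0. Its centre (chr6:116034154-116034453, plus strand, hg38) held 1 AP-1 and 1 TEAD match, in capitals, and is shown as the point of largest loss in that line.
FRK intron: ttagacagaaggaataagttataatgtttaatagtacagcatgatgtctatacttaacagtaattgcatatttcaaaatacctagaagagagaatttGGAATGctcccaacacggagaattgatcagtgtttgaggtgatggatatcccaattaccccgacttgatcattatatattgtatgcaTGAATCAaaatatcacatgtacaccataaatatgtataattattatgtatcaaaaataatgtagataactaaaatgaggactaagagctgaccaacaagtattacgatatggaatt

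PTK6 (ENSG00000101213.7, chr20:63528001-63537376, minus strand, hg38), also called BRK and found in epithelia and breast tumours, had RNA levels of 8.44 in naive cells, 8.25 in erCriz0, 7.87 in erAlec0 and 7.42 in erLor0. All resistant lines lay below naive cells, in that order. The changes were -0.18, -0.57 and -1.02, and the last corresponds to a 2.03-fold lower level on the rlog scale. In erLor0, 90 expressed genes (0.709%) had a change at or below that of PTK6, while the 53 expressed genes within 5 Mb had a median of -0.11.

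The order differed for acetylation, which was lowest in erAlec0. Of the 13 peaks, 8, 13 and 10 were lower in erCriz0, erAlec0 and erLor0, with medians of -0.18, -0.81 and -0.31. The 477 other peaks within 5 Mb had medians of -0.16, -0.56 and -0.35, of similar size. The start peak (chr20:63536159-63541693) stood at 11.02, 11.22, 10.57 and 11.10 in naive cells, erCriz0, erAlec0 and erLor0. The next peak, over exons in the body of the gene (chr20:63531558-63535769), stood at 10.76 in naive cells and 10.58, 9.10 and 9.67 in erCriz0, erAlec0 and erLor0. Its change of -1.67 in erAlec0 was the lowest of all 129 peaks in any line, and in erLor0 it was -1.09. The peak is also paired with SRMS, FNDC11 and PPDPF, which lie close by, so it cannot be assigned to PTK6 alone. Its centre (chr20:63533514-63533813, plus strand, hg38), with 62.0% GC and no match to the 5 motifs, is shown as the place of the largest loss.
PTK6 gene body: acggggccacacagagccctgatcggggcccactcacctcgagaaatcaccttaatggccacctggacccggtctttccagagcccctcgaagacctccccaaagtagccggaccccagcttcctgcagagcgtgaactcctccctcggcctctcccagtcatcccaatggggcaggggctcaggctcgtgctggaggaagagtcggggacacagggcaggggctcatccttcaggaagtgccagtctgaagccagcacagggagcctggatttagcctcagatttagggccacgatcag

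CSK (ENSG00000103653.16, chr15:74782057-74803198, plus strand, hg38), the kinase that inhibits the family, was lower in erCriz0 alone. Its RNA level was 9.27 in naive cells, 8.70 in erCriz0, 9.36 in erAlec0 and 9.37 in erLor0. The changes were -0.57, 0.10 and 0.10, and in erCriz0 1152 expressed genes (9.07%) had a change at or below that of CSK. The 76 expressed genes within 5 Mb had median changes of -0.21, -0.01 and -0.001 in erCriz0, erAlec0 and erLor0. Both SRC and its inhibitor CSK thus had their lowest RNA level in erCriz0. The microRNA gene MIR4513 overlaps CSK. The start peak (chr15:74782027-74791532) went the other way in erCriz0, at 9.84 in naive cells and 10.82, 9.81 and 9.85 in erCriz0, erAlec0 and erLor0.

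The median change over the 12 peaks of CSK was small, at 0.05, -0.13 and -0.21 in erCriz0, erAlec0 and erLor0. The 652 other peaks within 5 Mb had medians of 0.0005, 0.30 and 0.11, so CSK lay below its surroundings in erAlec0 and erLor0. A long upstream peak (chr15:74756261-74769068) differed from the rest: it stood at 8.55 in naive cells, 8.78 in erCriz0, 11.01 in erAlec0 and 10.23 in erLor0. The changes were 0.23, 2.46 and 1.68, and the last was the highest of all 129 peaks in erLor0. CSK RNA was nearly level in these lines, and the peak lies 12989 bp from CSK and is also paired with CYP1A2, an enzyme of xenobiotic metabolism. Its centre (chr15:74762515-74762814, plus strand, hg38), with 65.7% GC, held 4 GC box matches and 1 ETS match, in capitals, and is shown because no other peak of the kinases was past the limit by as much in both lines.
CSK upstream: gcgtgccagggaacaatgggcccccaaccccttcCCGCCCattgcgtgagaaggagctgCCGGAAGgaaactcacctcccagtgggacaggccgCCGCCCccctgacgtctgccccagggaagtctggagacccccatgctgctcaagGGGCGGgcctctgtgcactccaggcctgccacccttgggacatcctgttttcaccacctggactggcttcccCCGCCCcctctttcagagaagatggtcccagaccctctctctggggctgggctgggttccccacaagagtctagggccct

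RefSeq promoters (GRCh38.p14, 250 bases before to 50 after the start) were matched for 4 of the 8 kinases, YES1, FYN, FRK and CSK. GC boxes were in 45.0% of all 35116 promoters and ETS letters in 10.3%. The YES1 promoter held 3 GC box and 1 ETS matches with 78.7% GC, and the FRK promoter held no match with 42.3% GC. The promoters listed for FYN held 8, 2, 0 and 0 GC boxes, and the CSK promoter held no match. YES1, FYN and FRK had a start peak that was higher in every resistant line, as most start peaks were, while that of CSK changed by -0.03 in erAlec0. A link between these letters and the start peaks was not tested.

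PTK2 (ENSG00000169398.19, chr8:140657900-141002216, minus strand, hg38), the focal adhesion kinase, had the smallest range of RNA levels, at 11.61 in naive cells and 11.76, 11.74 and 11.63 in erCriz0, erAlec0 and erLor0. The changes were 0.15, 0.13 and 0.02. The start peak (chr8:140999189-141004679) was higher in all lines, at 10.16, 11.00, 10.45 and 10.79 in naive cells, erCriz0, erAlec0 and erLor0. The 27 peaks together had medians of 0.42, -0.43 and -0.03, where 520 others within 5 Mb had -0.02, -0.44 and -0.10. Deep in the gene, neighbouring intervals differed in direction. A group of 4 intronic peaks 191.9 to 195.34 kb into the gene was up in erAlec0, with changes of 1.42, 1.05, 1.16 and 1.34, and the strongest of them (chr8:140809251-140811389) stood at 6.11 in naive cells, 6.16 in erCriz0, 7.45 in erAlec0 and 7.12 in erLor0. The next strong peak, 204.01 kb into the gene (chr8:140795511-140800909), stood at 8.27, 9.21, 7.19 and 7.97 in the same order, down by 1.08 in erAlec0. PTK2 RNA was nearly level across these lines.

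The wider pathway was described through 4 lists. Of 9 related kinases, 4 were expressed and 0 were past the limit in any line. BLK, FGR and MATK, kinases of blood cells or neurons, and SRMS, the neighbour of PTK6, stayed below the minimum in every line. LCK, known from T cells, had the largest change: its level was 7.13 in naive cells, 8.13 in erCriz0, 6.93 in erAlec0 and 7.24 in erLor0. Its change of 0.996 in erCriz0 was just short of the limit, and past it once each library was centred. CD3E, a T cell marker, was below 0 in all libraries. ABL1, a related kinase of the cytoplasm and nucleus, had the lowest change of this list, -0.27 in erCriz0.

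Of 12 regulators of SRC family kinases, 9 were expressed and 0 were past the limit in any line. These are adaptors that bring CSK to the membrane, phosphatases that open or shut the kinases, and ubiquitin ligases that remove them. The phosphatase PTPRE had the highest change, with levels of 6.88 in naive cells, 7.61 in erCriz0, 7.44 in erAlec0 and 6.57 in erLor0. The adaptor DOK1 had the lowest, -0.38 in erAlec0. The list medians were 0.06, 0.21 and -0.06 in erCriz0, erAlec0 and erLor0.

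Of 37 focal adhesion proteins, 35 were expressed. In erCriz0, 1 was up and 2 were down, in erAlec0 2 were up and 1 was down, and in erLor0 1 was up and 0 were down. With 35 genes, these counts lie near the shares of all expressed genes, which were 2.65% up and 1.65% down, 2.46% and 2.07%, and 1.10% and 0.740%. The list medians were -0.02, 0.17 and 0.11, against medians of all expressed genes within 0.02 of 0. NEDD9, a docking protein phosphorylated by PTK2 and SRC, had the widest range, at 8.44 in naive cells, 7.27 in erCriz0, 9.91 in erAlec0 and 9.21 in erLor0. NEDD9 was down in erCriz0, with a change of -1.18, and up in erAlec0, with 1.47. TNS4, a member of the tensin family, was higher in every resistant line, at 10.02, 10.88, 11.29 and 11.14 in naive cells, erCriz0, erAlec0 and erLor0. It was up by the limit in erAlec0 and erLor0. TNS2, another tensin, was down in erCriz0 alone, with a change of -1.06. The adaptor SORBS2 was down in erAlec0 alone, with a change of -1.04. The core adaptors VCL (vinculin) and TLN1 (talin) were nearly level, with changes of 0.17 to 0.29 and of 0.03 to 0.20.

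All 13 substrates on the last list were expressed, and 1 of them was past the limit. That was in erCriz0, where 2.65% of expressed genes were up and 1.65% down. With 13 genes, a count of 1 is too small to be set apart from these shares. CDCP1, a membrane protein that SRC phosphorylates, stood at 10.04 in naive cells and 11.13, 10.17 and 9.96 in erCriz0, erAlec0 and erLor0, up in erCriz0 with a change of 1.09. The list medians were 0.25, 0.13 and 0.08. CAV1, the coat protein of caveolae, was the nearest to the limit of the others, at 4.62 in naive cells and 5.61, 5.21 and 5.23 in the resistant lines. Its naive level lay just below the minimum, so CAV1 counted as expressed only through the resistant lines.

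**Figure D4:**
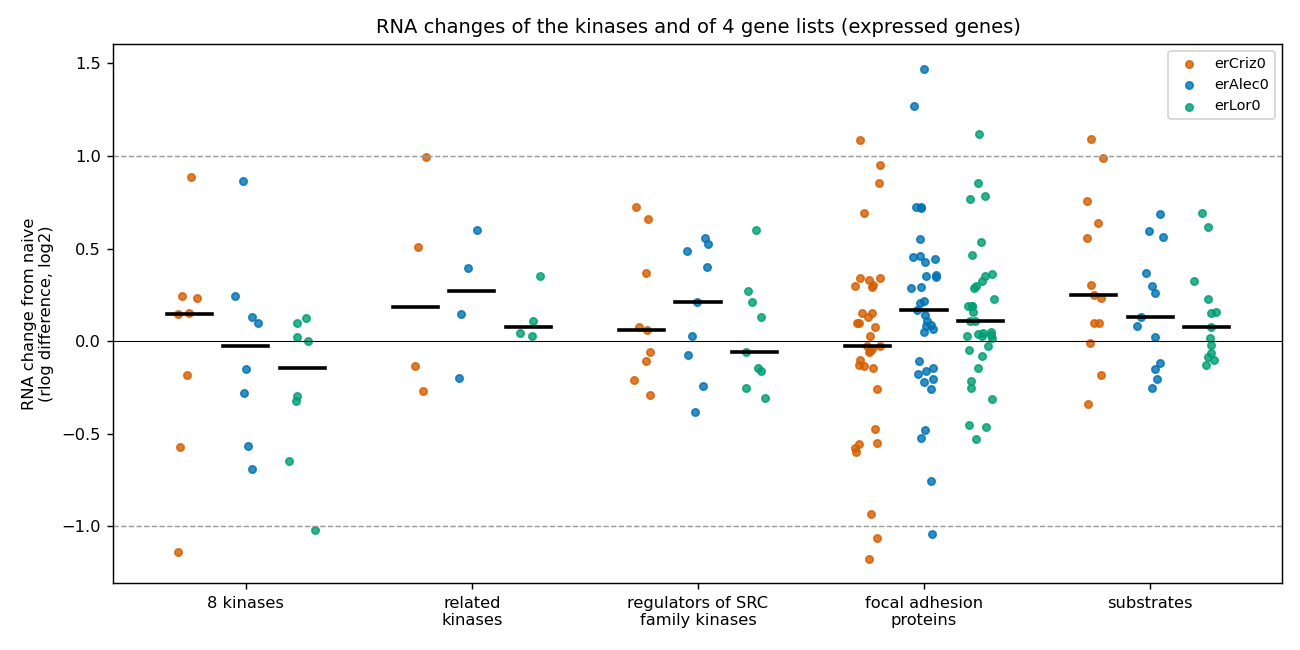
RNA change from naive cells (rlog difference, log2 scale) of the 8 kinases and of the expressed genes of 4 lists, 1 point per gene and line with bars at the medians; dashed lines mark the limit of 1. Most genes lie within the limit, and the focal adhesion list spans the widest range, from -1.18 to 1.47, both ends being NEDD9.

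Over the 3 RNA changes, the 5 expressed genes nearest to SRC, the kinase with the largest absolute change, were WDR90, LINC00665, ID2, LMCD1 and ZNF469, at Euclidean distances of 0.09 to 0.16 on the log2 scale among 12701 genes. ID2, an inhibitor of basic helix-loop-helix factors, had changes of -1.22, -0.61 and -0.39 in erCriz0, erAlec0 and erLor0. With 3 values that share 1 naive library, closeness of this kind is a description of these libraries.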

How the data were processed

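Values from bulk RNA-seq and from H3K27ac ChIP-seq of 4 lines were used, each line with a single library per assay. The authors deposited 1 table of peak and gene pairs at most 20 kb apart, whose log2 values are rlog values computed with DESeq2 over the 4 libraries. The RNA reads had been realigned to hg38 with HISAT2 and counted with HTSeq-count. ChIP reads had been aligned with BWA, per the labels, with duplicates marked by picard, peaks called by MACS2 and merged over 4 samples, and reads counted with featureCounts. The versions are not given in the sources used here. The deposited columns of means over the lines and of a correlation, its p-value and its adjusted p-value for each pair are the authors' own and were not used. Of the 8 samples, erCriz1, erLor1, Lor 2w and the pooled input were not analysed here.

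Read totals cannot be recovered from rlog values, so depth and counting error are unknown. Differences between lines were computed in Python 3.11.15 with numpy 2.4.6 and pandas 2.3.3, without a test. Exon lengths came from GENCODE release 44. A start peak covers the 5′ end of the gene or is the nearest within 2 kb. Named genes were the kinases, list genes past the limit (else the highest and lowest of the list), start peaks, the highest and lowest peak change per line, and the 5 genes nearest to SRC. Other peaks named were chosen after their values were seen, as were the further list genes with values. The values of some list genes are not reported here. The kinases and lists were chosen with earlier results of these data known. On simulated data, 200 of 200 planted RNA changes among 12701 genes were recovered for erLor0. Alternatives were another limit, centring, quantile normalization, other peak choices and subtraction of regional medians.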

Additional observations from a re-analysis of the deposited data

Results flagged for a closer look

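The LYN peak at chr8:56005234-56008047 was past the limit in opposite directions in 2 lines, with a change of 1.23 in erCriz0 and of -1.04 in erLor0. NEDD9 RNA was likewise past it in opposite directions, with -1.18 in erCriz0 and 1.47 in erAlec0. Neither difference was tested, since each line has 1 library.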

How the results depend on the processing

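A value was taken as moved at a shift of 0.1 on the log2 scale, and a count at a change of over 1.5 times. At a limit of log2 of 1.5 in place of 1, the kinases past the RNA limit became 2 in each line, where 16.1%, 15.9% and 8.09% of expressed genes were past it in erCriz0, erAlec0 and erLor0. Their peaks up or down became 25 and 27 (erCriz0; 19.4% and 20.9%, against 18.4% and 18.7% of all peaks), 17 and 56 (erAlec0; 13.2% and 43.4%, against 25.9% and 23.4%) and 17 and 38 (erLor0; 13.2% and 29.5%, against 19.7% and 22.2%). At the same limit, in erCriz0, 1 related kinase, 2 regulators, 8 focal adhesion proteins and 4 substrates were past it, in erAlec0 1 related kinase, 7 focal adhesion proteins and 2 substrates, and in erLor0 1 regulator, 4 focal adhesion proteins and 2 substrates. Centring over expressed genes put 1 related kinase (LCK) and 2 substrates past the limit of 1 in erCriz0. Centring the ChIP libraries gave 10 peaks up and 2 down in erCriz0 and 5 down in erLor0. The shares of all expressed genes and of all peaks past the limit after centring were not computed. Quantile normalization lowered the median RNA change of the kinases in erCriz0 from 0.15 to 0.044, and centring turned that in erAlec0 from -0.03 to 0.005. Of 48 RNA values of single kinases under these scalings, 4 moved, by at most 0.12. Of 159 median peak changes, 78 moved and 15 changed sign, the latter at values of LYN, PTK2, PTK6 and CSK. Of 48 start peak values, 17 moved and 4 changed sign, all 4 under the mean over peaks within 2 kb, at SRC in erCriz0 (-0.60) and erAlec0 (-0.06), CSK in erAlec0 (0.21) and PTK6 in erLor0 (-0.51). YES1, PTK6 and CSK had no peak paired with 1 gene only, so that setting gave no value there. No called value changed sign. No paired analysis was possible because each line has 1 library of each kind. No line has a replicate and the depth is unknown, so neither replicate nor counting error can be set beside these values.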
